A study of Rattus norvegicus with 6 samples.

Results

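Antioxidant defence genes were followed in the spinal cord of rats that had received a nerve scaffold after injury. They are 6 genes chosen by their Ensembl identifiers: Hmox1 (ENSRNOG00000014117), Nqo1 (ENSRNOG00000012772), Sod1 (ENSRNOG00000002115), Sod2 (ENSRNOG00000019048), Cat (ENSRNOG00000008364) and Gclc (ENSRNOG00000006302). All 6 identifiers were among the 22526 genes of the table, and all 6 passed the filter on low values that left 19515 genes to test. RNA came from the spinal cord of 6 adult Sprague-Dawley rats, described as female, at 2 weeks after spinal cord injury. In 3 rats the lesion had received a scaffold of decellularized optic nerve, from which the cells had been removed (DON). The other 3 had received decellularized optic nerve that carried Apt19S, an aptamer, which is a short folded nucleic acid selected to bind a target (A-DON). Injury and scaffold were common to both groups, and no uninjured cord or cord without a scaffold was compared, so DON was the only reference. Each rat gave 1 library. Host tissue and any cells that had entered the scaffold were not separated by the labels.

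Cells limit oxidative damage through enzymes that work in sequence. Superoxide dismutases turn superoxide into hydrogen peroxide, catalase and glutathione-dependent peroxidases remove the peroxide, and the synthesis of glutathione starts with an enzyme that contains the product of Gclc. Hmox1, Nqo1 and Gclc are textbook targets of NRF2, a transcription factor that is released from its inhibitor KEAP1 under oxidative or electrophilic stress and binds antioxidant response elements. In injured cord, Hmox1 is known from macrophages and microglia that take up blood, because its product heme oxygenase 1 breaks down heme.

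Levels are given as normalized counts, that is, reads per gene divided by the size factor of the library. Reads counted on the genes of the table came to 24961512 to 31189687 per library, and every member had at least 278 in every library. If each count is 1 read, counting error (1 SD) was thus at most 6.0% of a value. In each member and group the SD between rats was larger than the counting error of its libraries, and it is the error used here. All 6 genes had a lower mean log2 level in A-DON than in DON, and 3 of them, Hmox1, Nqo1 and Cat, fell past the threshold of the test across all genes (limma, Benjamini-Hochberg adjusted p under 0.05). None rose past it. Among all 19515 tested genes 9981 had a lower mean log2 level in A-DON. Of them all, 16.6% were called lower and 18.9% higher in A-DON, and 35.5% were called in either direction. With libraries scaled to equal totals, 2418 genes were lower and 4371 higher, against 3232 and 3698 on the deposited scale, and the same 3 members were called lower. The median log2 fold change was -0.80 over the 6 members and -0.02 over all tested genes. The members were chosen with earlier results of these data known. Setting them beside all genes, here and below, is therefore no test of the set. RNA of the cord was measured in bulk, so fewer cells that carry a transcript and less of it per cell cannot be told apart.

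**Figure D1:**
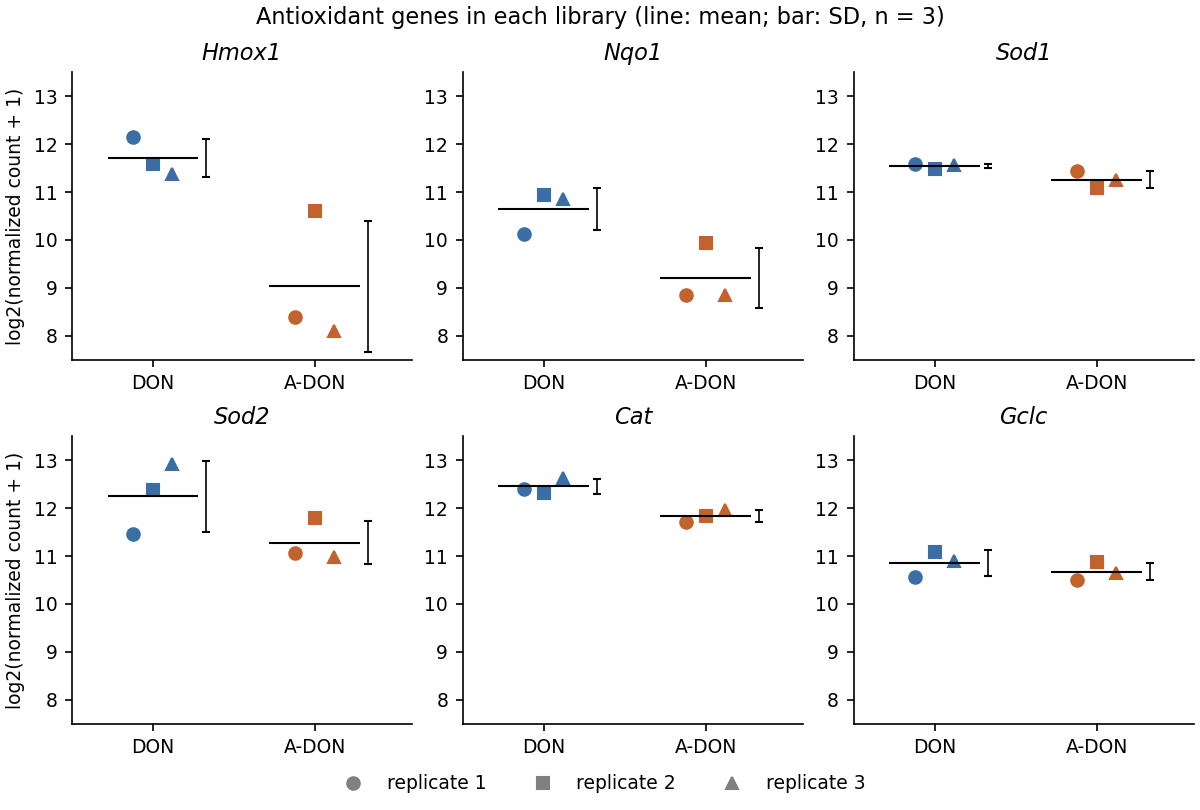
Level of each of the 6 genes in each library, as log2(normalized count + 1) on a shared vertical axis, by group; symbols mark the replicate, lines the group mean and bars the SD of 3 rats. All 3 A-DON rats lie below all 3 DON rats for Hmox1, Nqo1, Sod1 and Cat, and the groups overlap for Sod2 and Gclc.

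Hmox1 differed most between the groups. DON replicates 1, 2 and 3 held 4541, 3072 and 2664 normalized counts, while the A-DON replicates held 334.1, 1547 and 274.9 in the same order. Every A-DON rat was thus below every DON rat, but A-DON replicate 2 was far above the other A-DON rats, at 5.08 times their mean. The group means were 3426 ± 987 normalized counts in DON and 719 ± 718 in A-DON (SD, n = 3 each). The log2 fold change was -2.67 ± 0.67 (SE; limma adjusted p = 0.030), or 6.38-fold lower in A-DON with a 95% interval of 2.05-fold to 19.9-fold. Of all tested genes, 630 had a lower log2 fold change, which placed Hmox1 at percentile 3.23. Without A-DON replicate 2 Hmox1 was 10.98-fold lower (limma adjusted p = 0.00099). Leaving out any other single library ended the call, with adjusted p of 0.066 to 0.11 and folds of 4.64 to 7.14.

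Nqo1 encodes a quinone reductase that keeps quinones out of redox cycles that form superoxide. Its levels were 1122, 1955 and 1850 normalized counts in DON replicates 1, 2 and 3 and 458.3, 975.3 and 463.7 in the A-DON replicates. The groups did not overlap, although A-DON replicate 2 came close to DON replicate 1. The means were 1642 ± 454 in DON and 632 ± 297 in A-DON (SD, n = 3 each). The log2 fold change was -1.43 ± 0.37 (SE; limma adjusted p = 0.032), or 2.69-fold lower with a 95% interval of 1.44-fold to 5.04-fold. The call was kept without DON replicate 1 or A-DON replicate 2 and was lost without any other library (limma adjusted p of 0.081 to 0.11). Hmox1 and Nqo1 thus were called in the same direction, and both were highest among the A-DON rats in replicate 2. That rank is not particular to them, since replicate 2 was the highest A-DON rat in 88.0% of all genes called lower.

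Gclc encodes the catalytic subunit of glutamate-cysteine ligase, which carries out the first step of glutathione synthesis. Normalized counts were 1504, 2180 and 1907 in DON replicates 1, 2 and 3 and 1457, 1873 and 1597 in the A-DON replicates. The groups overlapped, and 1 A-DON rat lay below all DON rats. The log2 fold change was -0.17 ± 0.18 (SE; limma adjusted p = 0.46), and its 95% interval ran from -0.60 to 0.26. A decrease of up to 1.52-fold is therefore inside the interval, while decreases as large as the estimates for Hmox1 and Nqo1 are outside it. Scaling libraries to equal totals moved the log2 fold change of Gclc to -0.08. Whether Gclc differs from Hmox1 or Nqo1 in its response was not tested.

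The start regions of Nqo1, Gclc and Sod2 are shown. Nqo1 and Gclc are NRF2 targets of which only Nqo1 was called, and the difference between their fold changes was not tested. Sod2 was picked because its region holds the element core that was searched. The regions are from RefSeq (build GRCr8) and cover 250 bases before to 50 after the annotated start. RefSeq's table held such a region for 5 of the 6 members, Hmox1 being the exception. The build named by the submitters' processing notes is another one, rn6. Capitals mark matches to 4 motifs. The core of the antioxidant response element was written as TGACNNNGC and searched on both strands. The AP-1 element, written as TGANTCA, shares its first letters with that core and was also searched on both strands. The GC box was searched on both strands as GGGCGG. The TATA box was searched on the printed strand only, as TATAAA.
Nqo1, chr19:52220218-52220517, minus strand: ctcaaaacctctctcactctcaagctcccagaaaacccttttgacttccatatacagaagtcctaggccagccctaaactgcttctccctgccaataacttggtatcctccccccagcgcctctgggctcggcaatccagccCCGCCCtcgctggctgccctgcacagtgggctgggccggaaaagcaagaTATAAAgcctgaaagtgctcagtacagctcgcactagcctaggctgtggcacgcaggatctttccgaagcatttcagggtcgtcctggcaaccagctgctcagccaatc
Gclc, chr8:87510226-87510525, plus strand: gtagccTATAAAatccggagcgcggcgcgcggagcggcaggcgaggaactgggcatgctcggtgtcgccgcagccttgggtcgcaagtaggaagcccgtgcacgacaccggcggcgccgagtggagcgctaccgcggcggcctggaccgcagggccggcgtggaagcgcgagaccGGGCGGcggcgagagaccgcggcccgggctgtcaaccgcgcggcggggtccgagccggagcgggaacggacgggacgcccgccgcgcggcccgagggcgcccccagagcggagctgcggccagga
Sod2, chr1:50050119-50050418, minus strand: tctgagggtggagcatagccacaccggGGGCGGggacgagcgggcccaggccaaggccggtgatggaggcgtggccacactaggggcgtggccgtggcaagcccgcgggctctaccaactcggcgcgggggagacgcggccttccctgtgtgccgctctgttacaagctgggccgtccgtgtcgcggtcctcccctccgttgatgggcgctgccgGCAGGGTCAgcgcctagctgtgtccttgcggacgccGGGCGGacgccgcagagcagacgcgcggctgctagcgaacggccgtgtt
The element core was found in 1 of the 5 regions, that of Sod2, as the reverse-strand match GCAGGGTCA at bases 216 to 224 of the run, counted from its 5′ end. Of all 33469 regions in the RefSeq table, 12.1% held that core. The AP-1 element was in none of the 5 regions and in 7.33% of all. A GC box was in 4 of the 5 and in 33.1% of all, and a TATA box was in 3 of the 5 and in 8.80% of all. Nqo1 and Gclc each had 1 GC box and 1 TATA box match. The TATA box match lay at bases 192 to 197 of the run in Nqo1, 7 to 12 in Gclc and 223 to 228 in Sod1. The search took TATAAA anywhere in the window, whatever its distance from the annotated start. Whether any match acts as a TATA box was not tested. Their guanine and cytosine content was 56.3% in Nqo1 and 76.7% in Gclc. These matches describe the letters of the windows, and enhancers farther away were not examined.

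Catalase, the product of Cat, splits hydrogen peroxide in peroxisomes. Cat held 5390, 5130 and 6351 normalized counts in DON replicates 1, 2 and 3 and 3343, 3633 and 4004 in the A-DON replicates. Each group was tight and the groups did not overlap. The means were 5624 ± 643 in DON and 3660 ± 332 in A-DON (SD, n = 3 each). The log2 fold change was -0.62 ± 0.13 (SE; limma adjusted p = 0.021), or 1.53-fold lower with a 95% interval of 1.23-fold to 1.92-fold. A-DON replicate 2 was level with the other A-DON rats in Cat, at 0.989 times their mean. Without it the log2 fold change was -0.61. The call was lost without DON replicate 3 (log2 fold change of -0.53, limma adjusted p = 0.067), A-DON replicate 1 (-0.55, adjusted p = 0.086) or A-DON replicate 3 (-0.68, adjusted p = 0.071).

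Sod1 and Sod2 encode superoxide dismutases, the copper and zinc enzyme of the cytosol and the manganese enzyme of mitochondria. Sod1 held 3054, 2874 and 3013 normalized counts in DON replicates 1, 2 and 3 and 2773, 2172 and 2432 in the A-DON replicates. The A-DON rats lay below the DON rats without overlap, yet the difference did not pass the test. Its log2 fold change was -0.28 ± 0.12 (SE; limma adjusted p = 0.11), with a 95% interval of -0.58 to 0.02. Across DON rats Sod1 had a log2 SD of 0.05, and only 4.61% of tested genes had a smaller one. A-DON replicate 2 had the lowest Sod1 level of all 6 rats.

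Sod2 varied far more than Sod1. It held 2803, 5311 and 7741 normalized counts in DON replicates 1, 2 and 3, a range of 2.76-fold within the group, and 2138, 3534 and 2004 in the A-DON replicates. A-DON replicate 2 lay above DON replicate 1, so the groups overlapped. The log2 fold change was -0.98 ± 0.42 (SE; limma adjusted p = 0.11), and the 95% interval ran from -1.99 to 0.04. The data therefore allow a decrease of up to 3.97-fold as well as no change. Without DON replicate 1, Sod2 passed the threshold with a log2 fold change of -1.37 (limma adjusted p = 0.045).

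**Figure D2:**
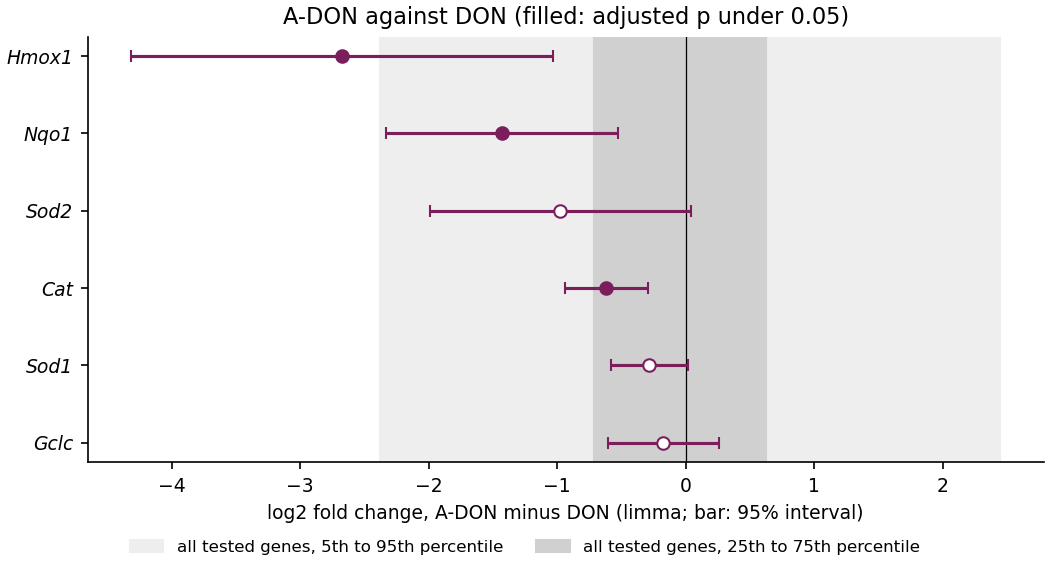
Log2 fold change of each gene (A-DON minus DON, horizontal axis) with its 95% interval from limma, over bands that hold the middle of all 19515 tested genes. The point for Hmox1 at -2.67 lies below the 5th percentile of all genes (-2.38), and the point for Nqo1 at -1.43 lies below the 25th percentile (-0.71) while that for Cat at -0.62 lies inside the darker band.

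In 4 of the 6 members, Hmox1, Nqo1, Cat and Sod1, all A-DON rats were below all DON rats. Among all tested genes 27.9% lay that way and 28% had all A-DON rats above all DON rats. The size of the change and its place among all genes were unlike between the called members, since Cat, at percentile 27.5 of the log2 fold changes, was called on a small standard error and Hmox1 on a large change. The log2 SD within A-DON was 1.36 for Hmox1 and 0.13 for Cat, against a median of 0.29 over all tested genes.

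Single rats did not keep the same rank in all 6 genes. A-DON replicate 2 was the highest A-DON rat in Hmox1, Nqo1, Sod2 and Gclc, the middle one in Cat and the lowest in Sod1. It was the highest A-DON rat in 38.6% of all tested genes and in 88.0% of the 3232 genes called lower. Its place was also measured with the DON mean at 0 and the mean of the other A-DON rats at 1. On the linear scale A-DON replicate 2 stood at 0.60 for Hmox1, 0.56 for Nqo1, 0.54 for Sod2 and 1.02 for Cat. It stood at 2.14 for Sod1 and -0.03 for Gclc. On the log2 scale, which the test used, it was nearer the DON mean for Hmox1 (0.32), Nqo1 (0.40) and Sod2 (0.37). The log2 places were 1.02 for Cat, 2.30 for Sod1 and -0.09 for Gclc. DON replicate 1 was the highest DON rat in Hmox1, at 1.58 times the mean of the other DON rats. In Nqo1, Sod2 and Gclc the same rat was the lowest, at 0.59, 0.43 and 0.74 times that mean.

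**Figure D3:**
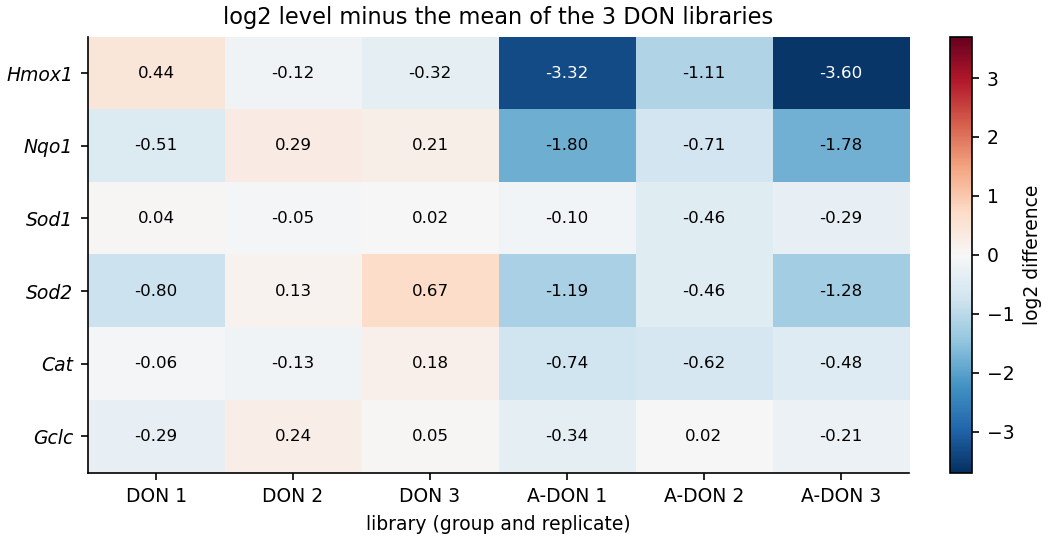
Log2 level of each gene (rows) in each library (columns) minus the mean of the 3 DON libraries of that gene; blue is lower and red is higher. Hmox1 stands at -3.32, -1.11 and -3.60 in the A-DON replicates, and DON replicate 1 is above the DON mean in Hmox1 (0.44) but below it in Nqo1 (-0.51) and Sod2 (-0.80).

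Patterns over the 6 libraries were compared by the root mean square distance between log2 values centred on the mean of each gene, which is 0 for identical patterns. The closest members were Sod1 and Cat (0.24), and Nqo1 was closer to Sod2 (0.34) than to Hmox1 (0.90). Hmox1 was the farthest from the rest, with distances of 0.90 to 1.49. These distances grow with the size of the difference between groups and describe 6 libraries only. Among 9752 other genes at or above the median level, the one closest to Hmox1 was ENSRNOG00000000704, at a distance of 0.04. It held 1845, 1300.5 and 1165 normalized counts in DON replicates 1, 2 and 3 and 143.4, 662.4 and 122.6 in the A-DON replicates. Its log2 fold change was -2.63 ± 0.66 (SE; limma adjusted p = 0.030). It was picked for closeness to Hmox1 in these same libraries. Values near those of Hmox1 follow from that choice and are no separate result. The sources used here pair no gene name with that identifier.

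Whether members moved apart was asked with log2 ratios of pairs within a library, which do not depend on how libraries are scaled. A ratio of this kind compares reads and not molecules, since gene lengths were not used. Hmox1 over Nqo1 was 1.06 ± 0.83 in DON and -0.18 ± 0.75 in A-DON (SD, n = 3 each), a difference of -1.25 (exact two-sided permutation p = 0.3). Sod2 over Sod1 was 0.71 ± 0.76 in DON and 0.02 ± 0.60 in A-DON, a difference of -0.69 (exact two-sided permutation p = 0.2, n = 3 each). For both pairs the groups overlapped. Cat over Sod1 was 0.91 ± 0.14 in DON and 0.58 ± 0.27 in A-DON, a difference of -0.33 without overlap (exact two-sided permutation p = 0.1, n = 3 each). The smallest p that 3 rats against 3 allow is 0.1, and the Benjamini-Hochberg value over the 3 pairs was 0.3 for each, so no pair was shown to move apart. Single libraries moved the size of each difference by over 1.5 times. Hmox1 over Nqo1 differed by -0.77 without DON replicate 1. Sod2 over Sod1 differed by -1.11 without DON replicate 1 and by -0.36 without DON replicate 3, and Cat over Sod1 by -0.18 without A-DON replicate 1.

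**Figure D4:**
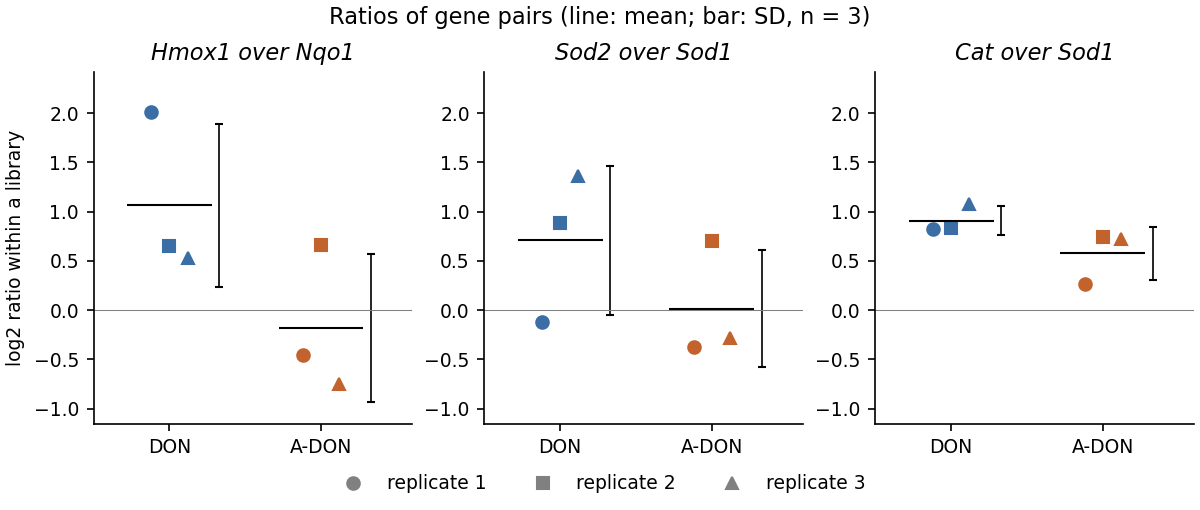
Log2 ratio of the pairs Hmox1 over Nqo1, Sod2 over Sod1 and Cat over Sod1 in each library, by group; symbols mark the replicate, lines the mean and bars the SD of 3 rats. The groups are apart for Cat over Sod1 alone, where DON runs from 0.82 to 1.08 and A-DON from 0.27 to 0.74.

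The count of called members rested on single libraries. It was 3 with all libraries, without A-DON replicate 2 (Hmox1, Nqo1 and Cat) and without DON replicate 1 (Nqo1, Cat and Sod2). It was 1 without DON replicate 2 (Cat), and 0 without DON replicate 3, A-DON replicate 1 or A-DON replicate 3. Of all tested genes, 24.9% were called lower without A-DON replicate 2, 6.65% without DON replicate 1 and 5.66% without DON replicate 2. In the 3 fits with 0 members called, 220, 3 and 1 of all tested genes were called lower, and 7764, 6838 and 6851 had an unadjusted limma p under 0.05 in either direction. All 6 log2 fold changes stayed below 0 in all 6 fits without a library.

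**Figure D5:**
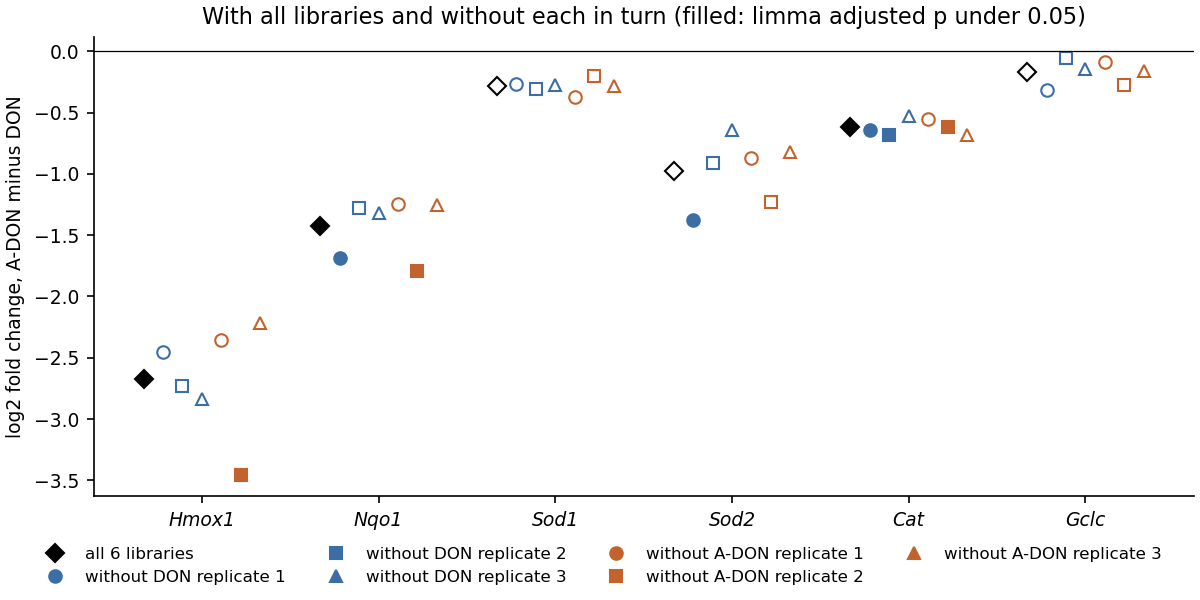
Log2 fold change of each gene (vertical axis) with all 6 libraries (diamond) and without each library in turn; filled symbols passed the limma threshold. Every point is below 0, and Hmox1 runs from -3.46 without A-DON replicate 2 to -2.21 without A-DON replicate 3.

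Markers of macrophages, glia, neurons and blood cells, the labelled tissue and other genes of the antioxidant and NADPH oxidase lists were not analysed here, because none of the 22526 identifiers was found in the reference table that holds gene symbols. The part of tissue makeup in these differences was not tested.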

How the data were processed

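Spinal cord mRNA of 6 rats (3 in each group) was sequenced with a stranded kit, per the labels' protocols. Tools named by the submitters' processing notes, without roles, are STAR 2.5.3a, StringTie 1.3.1c and FastQC 0.11.2, with build rn6. How reads were counted, with which strand setting and annotation, is not given in the sources used here. Values were deposited by the authors as log2. Undoing the log2 and subtracting 1 gave whole multiples of 1 step per library for 100% of values, within 0.05 of a count. The values thus have the form log2(count / size factor + 1), and whole counts were recovered from them. These counts are called reads here, but whole numbers alone do not show that 1 count is 1 read.

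A gene was tested if 3 or more libraries had a normalized count of 1 or more. The test was limma 3.58.1 (R 4.3.3), with group alone, intensity trend, robust moderation and Benjamini-Hochberg adjustment over all 19515 genes. The scale of every fold change is log2(value + 1), which understates changes of low genes. Replicates were treated as separate rats. The sample titles use the rat numbers 1, 2 and 3 in both groups and do not say whether equal numbers link rats. On simulated counts for the real genes (dispersion 0.05, 19926 genes kept) the same test recovered 41.4% of 2-fold and 89.7% of 4-fold changes, with 8 false calls. Only 99 genes with a 2-fold and 97 with a 4-fold change were simulated, while 35.5% of tested genes were called in the data. No library was simulated as outlying in the way of A-DON replicate 2. These shares therefore do not give the power or error of the test on these data.

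Alternatives were other scalings, filters, moderation, a pseudocount of 0.1, a replicate block, voom, sample weights and leaving out each library. The 6 members and the lists were chosen with earlier results of these data known. The rule for named genes took all members and the gene most like the member with the largest rise and the largest fall; no member rose. Its lists of pathway genes and cell type markers, given by symbol, could not be matched to the identifiers. Member symbols come from the rule that chose them.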

Additional observations from a re-analysis of the deposited data

How the results depend on the processing

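All 6 genes kept a log2 fold change below 0 under all 9 settings that use every library and in all 6 fits without 1 library. Rescaling to equal totals, quantile normalization, both other filters, plain moderation, a pseudocount of 0.1 and voom on the recovered reads changed no call among the 6, and each left 3 called lower, where 12.4% (equal totals) to 18.3% (mean of at least 5) of all tested genes were called lower.

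With the replicate number as a block, 0 of the 6 genes and 0 of all genes were called, in either direction (limma; 7601 genes at an unadjusted p under 0.05). The log2 fold changes are by construction those without it, and limma adjusted p became 0.072 for Hmox1 (-2.67), 0.066 for Nqo1 (-1.43) and 0.072 for Cat (-0.62). That fit has fewer residual degrees of freedom. The labels do not say that numbers pair rats, same-numbered rats did not share deviations from their group means (r = -0.18, -0.24 and -0.08 across genes), and none of the 3 A-DON rats correlated best with its own number.

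Sample weights, which ran from 0.24 (A-DON replicate 2) to 6.99 (A-DON replicate 3), called 5 of the 6 genes, adding Sod1 (-0.27, limma adjusted p = 0.029) and Sod2 (-1.53, limma adjusted p = 0.0028). They moved Hmox1 to 10.1-fold lower, and called 12414 genes, 6153 higher and 6261 lower; the cause was not tested.

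The fits without 1 library gave log2 fold changes of -3.46 to -2.21 for Hmox1, -1.79 to -1.24 for Nqo1, -0.68 to -0.53 for Cat, -1.37 to -0.64 for Sod2, -0.37 to -0.20 for Sod1 and -0.32 to -0.05 for Gclc, with 0 to 3 of the 6 called. Over all genes it gave 12 to 9286 calls, 11 to 4431 higher and 1 to 4855 lower, lowest without A-DON replicate 3 and highest without A-DON replicate 2. Each of these fits rests on 5 rats. The differences in log2 ratio kept their sign, and without 1 library ran from -1.67 to -0.77 for Hmox1 over Nqo1, -1.11 to -0.36 for Sod2 over Sod1 and -0.42 to -0.18 for Cat over Sod1; a pseudocount of 0.1 left them at -1.25, -0.69 and -0.33.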
